A study of Mus musculus with 7 samples.

Results

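The genes examined were 10 that make, trim, carry and load peptides for major histocompatibility complex (MHC) class I, or that drive those genes: Nlrc5, Psmb8, Psmb9, Psmb10, Psme1, Psme2, Erap1, Tap1, Tap2 and Tapbp. They were chosen with earlier results of these data known and matched by symbol to the GENCODE M21 annotation. All 10 were found among the 55401 genes of the deposited count table and passed the filter on low counts. RNA was sequenced from CD11b-bead-enriched microglia of the dorsal hippocampus of adult C57BL/6 mice of 6 to 8 weeks, labelled male. Every mouse had AAV-RAM-Cre injected into the dorsal dentate gyrus; RAM is a synthetic promoter that responds to neuronal activity and so directs Cre to recently active (engram) neurons. The 4 EYFP libraries came from mice that also received AAV-Dio-EYFP, a Cre-dependent fluorescent protein, and the 3 ATG7 libraries from mice that received AAV-Dio-Atg7-Flag, a Cre-dependent tagged Atg7, the autophagy gene. The transgene was thus directed at neurons, while RNA was taken from microglia, and the labels do not say whether a library is 1 mouse or a pool. P-values therefore measure the spread between these libraries, which may be technical.

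Cells show fragments of their own proteins on MHC class I. The proteasome cuts proteins into peptides, and in immune cells or after interferon its 3 catalytic subunits can be replaced by Psmb8, Psmb9 and Psmb10, which makes the immunoproteasome. The PA28 cap, built of Psme1 and Psme2, opens the proteasome barrel. The transporter Tap1/Tap2 pumps the peptides into the endoplasmic reticulum, where Erap1 trims them and Tapbp (tapasin) holds the empty class I molecule at the transporter. Nlrc5 is a transcriptional coactivator of class I genes and of several genes of this set. Microglia, the resident macrophages of the brain, carry low levels of this machinery at rest and more of it after interferon.

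Library totals ranged from 35934210 to 55217119 counts, and values below are CPM, reads of a gene relative to the library total after scaling by trimmed-mean (TMM) factors. Differences were tested with the quasi-likelihood test of edgeR, two-sided, with Benjamini-Hochberg adjustment over the 19199 genes that passed the filter, and a gene was called when its adjusted p was under 0.05. Atg7 was at 33.6 to 37.6 CPM in EYFP and 32.0 to 37.4 CPM in ATG7 (edgeR adjusted p = 0.939), which checks nothing in the neurons that carried the transgene. The microglial genes P2ry12 and Tmem119 were between 1558 and 3498 CPM in all 7 libraries. The choroid plexus gene Ttr was higher still, at 29100 to 44600 CPM, so the libraries did not hold microglial RNA alone. EYFP 3 stood apart in sex-linked genes, with Xist at 938.5 CPM against at most 0.574 CPM in the other 6 libraries and the Y-linked Ddx3y at 27.6 CPM against at least 121.1 CPM. These values go against the male label of that library, and whether it mixes RNA of both sexes was not tested. The calls are therefore also given without EYFP 3.

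Of the 10 genes, 4 rose in ATG7 and 6 did not pass. Across all genes tested, 0.755% were called in either direction and 0.688% were called as higher. The 4 that rose were Nlrc5, Tap1, Psmb9 and Psmb8. Every one of the 10 had a fitted log2 fold change above 0, from 0.19 to 1.5 with a median of 0.30, where the median over all genes tested was -0.0037. An unadjusted p under 0.05 was found for 10 of 10, all higher, where 6.27% of all genes tested were higher at that level and 12% differed in either direction. In 7 of the 10 every ATG7 library lay above every EYFP library, a pattern found as higher in ATG7 for 6.33% of all genes tested. The Wald test of DESeq2, which called 3.26% of its genes, called 5 of the 10, the additional gene being Tap2. Limma-voom, which called 1.08% of all genes, called 4. The 10 genes were chosen with earlier results of these data known, so these shares describe the set and do not test it. Summed lymphocyte markers were also higher in ATG7, by a narrow gap, at 15.3 to 21.1 CPM in EYFP and 21.5 to 37.3 CPM in ATG7. Their part in these results was not tested.

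**Figure D1:**
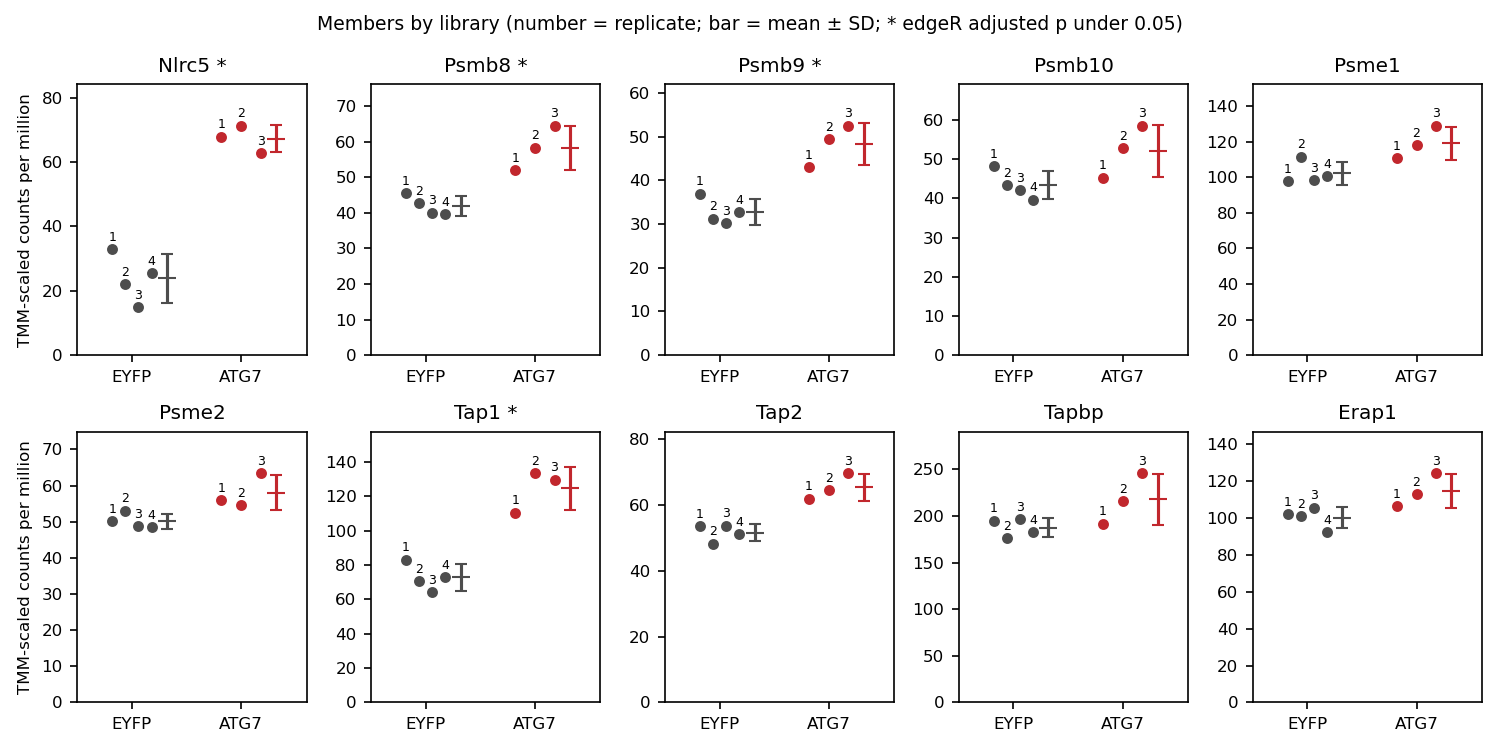
Each panel plots 1 gene, with TMM-scaled CPM on the vertical axis from 0 and the 4 EYFP (grey) and 3 ATG7 (red) libraries as numbered points beside their mean ± SD. Nlrc5 shows the widest gap between the groups, with EYFP at 14.9 to 33.0 and ATG7 at 62.8 to 71.3 CPM, while Tapbp, Psmb10 and Psme1 overlap.

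Nlrc5, the class I coactivator, had the largest fold change of the 10 genes. It measured 33.0, 21.98, 14.9 and 25.6 CPM across EYFP 1 to 4, against 67.9, 71.3 and 62.8 CPM across ATG7 1 to 3. The lowest ATG7 library was well above the highest EYFP library, EYFP 1, and EYFP 3 was the lowest of all. Mean levels were 23.9 ± 7.53 CPM in EYFP (SD, n = 4) and 67.3 ± 4.29 CPM in ATG7 (SD, n = 3), a fitted change of 2.82-fold. The fitted log2 difference stood at 1.5 ± 0.223 (SE, edgeR adjusted p = 0.0282). Without EYFP 3 it was 1.32 (edgeR adjusted p = 0.00266), and without EYFP 1 it was 1.69 (edgeR adjusted p = 0.00330). Of the 7 fits that leave out 1 library, only these 2 passed, and the edgeR adjusted p reached 0.151 in the others. The gene (ENSMUSG00000074151) lies on chromosome 8 from 94434356 to 94527272 in GRCm38. A long noncoding RNA on the opposite strand, 9330175E14Rik, overlaps 0.920% of its exon length. That transcript was at 0.732 to 2.95 CPM in EYFP and 3.94 to 5.20 CPM in ATG7, with a log2 fold change of 1.47 that did not pass (edgeR adjusted p = 0.127). The strand setting of the counting is not given in the sources used here, so reads in the overlap cannot be told apart.

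Tap1 and Psmb9 share their start region. Tap1 is a subunit of the peptide transporter, and Psmb9 is the immunoproteasome subunit that takes the place of Psmb6. They lie head to head on chromosome 17, Tap1 from 34187553 to 34197225 on the plus strand and Psmb9 from 34181987 to 34187764 on the minus strand, and their exons overlap by 212 bases, 3.87% of the exon length of Tap1 and 5.79% of that of Psmb9, where reads cannot be told apart without strand. Their RefSeq promoter windows, 250 bases before to 50 after each start, share 275 bases. The annotations differ here: the RefSeq start of Psmb9 lies 434 bases inside the outermost GENCODE edge of the gene, which is beyond the start of Tap1, and that of Tap1 lies 3 bases inside its own. The stretch between the RefSeq starts is 225 bases long with 61.3% G or C. It is shown because by RefSeq a gene that rose begins at each end of it. It is at chr17:34187331-34187555 (GRCm38.p6, plus strand, from RefSeq), with the RefSeq start of Psmb9 just before its first base, that of Tap1 just after its last, and a CCAAT box in capitals.
Psmb9 to Tap1: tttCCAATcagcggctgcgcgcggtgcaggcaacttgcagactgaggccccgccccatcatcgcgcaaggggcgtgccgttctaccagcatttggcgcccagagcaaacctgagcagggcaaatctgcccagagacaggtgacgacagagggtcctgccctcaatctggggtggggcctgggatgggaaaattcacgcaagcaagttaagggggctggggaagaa

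Tap1 (ENSMUSG00000037321) measured 83.2, 70.7, 64.3 and 73.1 CPM across EYFP 1 to 4, against 110.5, 133.6 and 129.8 CPM across ATG7 1 to 3. The groups did not overlap, and EYFP 1 was again the highest of the EYFP libraries and EYFP 3 the lowest. The fitted log2 difference stood at 0.78 ± 0.0967 (SE), or 1.71-fold (edgeR adjusted p = 0.00705). Without EYFP 3 it was 0.71 (edgeR adjusted p = 0.00843). Psmb9 (ENSMUSG00000096727) measured 36.9, 31.2, 30.3 and 32.8 CPM across EYFP 1 to 4, against 43.1, 49.5 and 52.5 CPM across ATG7 1 to 3. These groups did not overlap either, with the same highest and lowest EYFP libraries. Its fitted log2 difference stood at 0.56 ± 0.0924 (SE), or 1.47-fold (edgeR adjusted p = 0.0208), and 0.52 without EYFP 3 (edgeR adjusted p = 0.0412).

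Psmb8, the subunit that takes the place of Psmb5, and Tap2, the other subunit of the transporter, follow Tap1 on the plus strand. The Psmb8 gene starts 495 bases after the end of Tap1, and the 4 genes from Psmb9 to Tap2 span 34.3 kb. Psmb8 (ENSMUSG00000024338, chromosome 17, 34197721 to 34201454) measured 45.5, 42.7, 40.0 and 39.6 CPM across EYFP 1 to 4, against 51.9, 58.3 and 64.5 CPM across ATG7 1 to 3. The groups did not overlap, although ATG7 1 lay nearer to EYFP 1 than to ATG7 3. The fitted log2 difference stood at 0.47 ± 0.0857 (SE), or 1.39-fold (edgeR adjusted p = 0.0303), and it did not pass without EYFP 3 (0.45, edgeR adjusted p = 0.0729). Tap2 (chromosome 17, 34203527 to 34216321) measured 53.5, 48.2, 53.7 and 51.0 CPM across EYFP 1 to 4, against 61.8, 64.4 and 69.7 CPM across ATG7 1 to 3. Its groups did not overlap, but its fitted log2 difference of 0.34 ± 0.0707 (SE) did not pass (edgeR adjusted p = 0.0590). DESeq2 called it, at the same log2 fold change (adjusted p = 0.00348). On the opposite strand the noncoding Gm15821 overlaps Tap2 by 533 exon bases and lay between 0.643 and 1.32 CPM, and Gm20496, which overlaps Psmb8 by 498 and Tap2 by 165 exon bases, had 0 counts in all libraries.

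**Figure D2:**
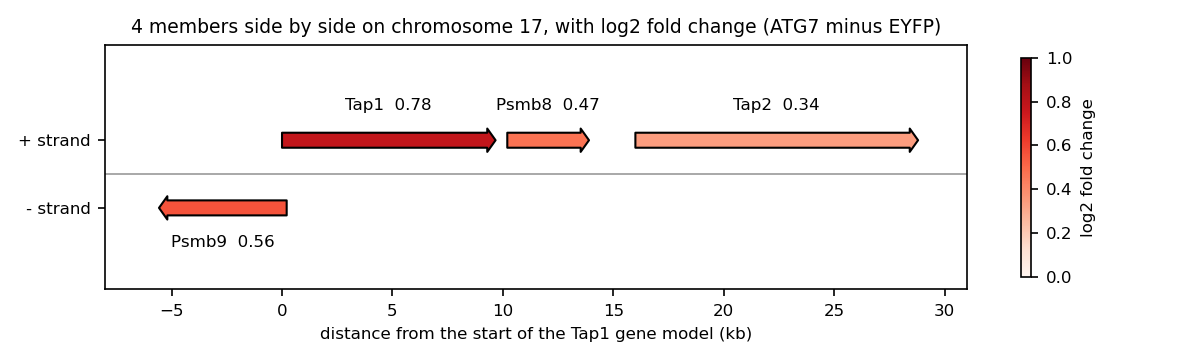
The map places the 4 neighbours by distance from the start of Tap1 in kb (horizontal axis), with strand on the vertical axis, arrows in the direction of transcription, and colour and printed value for the log2 fold change. Psmb9 and Tap1 point away from each other, and the values fall from 0.78 for Tap1 to 0.34 for Tap2.

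The 250 bases before the RefSeq start of Psmb8 lie at chr17:34197945-34198194 (GRCm38.p6, plus strand), and this start is 474 bases inside the GENCODE gene. They are shown because Psmb8 rose and no other of the 8 genes with a window holds the motif TTCNNNGAA, the gamma-activated site of interferon-gamma signalling, which is in capitals.
Psmb8 upstream: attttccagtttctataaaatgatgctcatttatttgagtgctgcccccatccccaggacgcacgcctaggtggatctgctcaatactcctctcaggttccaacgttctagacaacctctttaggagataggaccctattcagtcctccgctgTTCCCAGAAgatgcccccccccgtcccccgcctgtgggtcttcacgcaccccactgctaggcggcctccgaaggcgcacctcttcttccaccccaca

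The motifs were searched on both strands in the 300-base windows of the 8 genes that RefSeq's table held, which leaves Tap2 and Nlrc5 named only. The gamma-activated site is found in 8.30% of all 32851 windows. CCAAT, the box bound by NF-Y, is found in 37.4% of them and in 3 of the 8 genes, Tapbp, Psmb9 and Tap1, the last 2 through the same shared box. GAAANNGAAA, the core of the interferon-stimulated response element, is found in 3.44% of windows and in 2 of the 8 genes. These are Erap1 and Psme1, neither of which passed the test. Their sites, 30 bases each in the direction of the gene with the core on the opposite strand in capitals, are at chr13:74639839-74639868 and chr14:55578493-55578522 (GRCm38.p6, plus strand).
Erap1 site: ccaccttcacTTTCACTTTCggtcccgggc
Psme1 site: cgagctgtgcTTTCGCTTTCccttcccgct

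Psmb10, the last immunoproteasome subunit, takes the place of Psmb7 and did not pass. It measured 48.2, 43.4, 42.1 and 39.7 CPM across EYFP 1 to 4, against 45.3, 52.7 and 58.5 CPM across ATG7 1 to 3. ATG7 1 lay below EYFP 1, so the groups overlapped. The fitted log2 difference stood at 0.27 ± 0.0964 (SE, edgeR adjusted p = 0.286). The gene lies on chromosome 8 from 105935735 to 105938444.

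The PA28 genes Psme1 and Psme2, neighbours on chromosome 14 (55578123 to 55581529 and 55587441 to 55591113), did not pass. Psme1 was at 97.8 to 111.5 CPM in EYFP and 110.6 to 128.9 CPM in ATG7, where ATG7 1 lay just below EYFP 2 (log2 fold change 0.22, SE 0.0785, edgeR adjusted p = 0.280). Psme2 was at 48.6 to 53.1 CPM in EYFP and 54.6 to 63.5 CPM in ATG7 without overlap (log2 fold change 0.21, SE 0.0734, edgeR adjusted p = 0.275). Psme2 is uncertain, because Psme2b on chromosome 11 matches its transcript at 99.4% over 794 bases and the treatment of shared reads is not given in the sources used here. Psme2b was at 26.0 to 29.2 CPM in EYFP and 27.4 to 34.8 CPM in ATG7. The sum of both came to 79.4, 79.5, 75.5 and 74.6 CPM across EYFP 1 to 4, against 86.9, 89.4 and 90.9 CPM across ATG7 1 to 3, without overlap. The pseudogenes Gm7776 and Gm46496 (near copies of Psme1) and Gm7928 (of Psme2) were at 0.108 CPM or less in every library.

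Tapbp, the bridge between class I and the transporter, also lies on chromosome 17 (33915899 to 33929292), 253 kb before Psmb9. It measured 195.0, 176.0, 196.9 and 182.6 CPM across EYFP 1 to 4, against 192.0, 216.1 and 246.2 CPM across ATG7 1 to 3. ATG7 1 fell inside the EYFP range, and the fitted log2 difference of 0.22 ± 0.0920 (SE) did not pass (edgeR adjusted p = 0.380). Zbtb22 on the same strand shares 149 exon bases with Tapbp and had a log2 fold change of -0.12 (edgeR adjusted p = 0.632). The antisense Gm19412 overlaps 904 exon bases, 24.9% of the exon length of Tapbp, and had 0 counts in all libraries. Without the strand setting, how reads in that overlap were counted is not known. Erap1, the trimming peptidase (chromosome 13, 74639568 to 74693201), was at 92.3 to 105.7 CPM in EYFP and 106.4 to 124.4 CPM in ATG7. Its groups did not overlap, but ATG7 1 and EYFP 3 were close, and the fitted log2 difference of 0.19 ± 0.0778 (SE) did not pass (edgeR adjusted p = 0.35). Cast, on the opposite strand, overlaps 11.5% of the exon length of Erap1 and was at 50.9 to 62.5 CPM over all libraries (log2 fold change -0.07, edgeR adjusted p = 0.784).

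**Figure D3:**
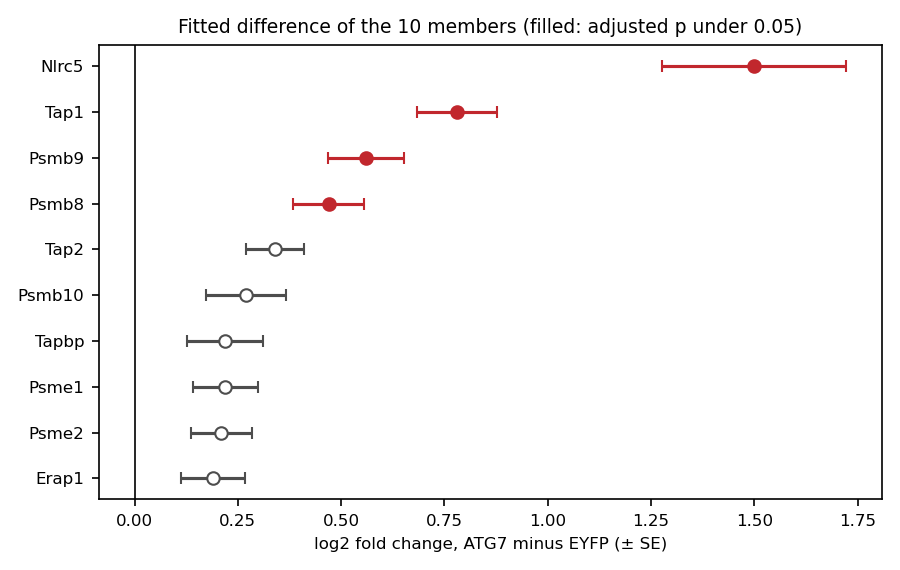
Fitted log2 fold changes (ATG7 minus EYFP, horizontal axis) with their SE for the 10 genes, filled where the edgeR adjusted p was under 0.05. Nlrc5 at 1.5, Tap1 at 0.78, Psmb9 at 0.56 and Psmb8 at 0.47 are filled, and the other 6 lie between 0.19 and 0.34.

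The order of libraries within a group was uneven. ATG7 3 was the highest ATG7 library for 8 of the 10 genes and ATG7 1 the lowest for 8. For Nlrc5 the order was different, with ATG7 3 the lowest and ATG7 2 the highest. In EYFP, EYFP 1 was the highest for 5 genes, among them all 4 that rose.

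Levels were compared between genes as CPM per kb of principal transcript. The SD does not cover this choice of length, and ranks may change with another. For Psme1 all exons together hold 2209 bases, against 1112 in the principal transcript. In EYFP the highest of the 10 was Psme1 at 91.8 ± 5.74 (SD, n = 4), followed by Tapbp at 64.7 ± 3.44 and Psme2 at 52.2 ± 2.16. The next were Psmb10 at 33.0 ± 2.72, Psmb8 at 25.8 ± 1.66, Tap1 at 24.7 ± 2.65 and Psmb9 at 24.3 ± 2.18, of which the last 3 did not differ beyond their spread. Erap1 at 17.8 ± 1.01 and Tap2 at 15.0 ± 0.750 followed, and Nlrc5 was the lowest at 3.15 ± 0.993. In ATG7 the coactivator was still the lowest, at 8.88 ± 0.566 (SD, n = 3). Tap1, at 42.2 ± 4.18 CPM per kb in ATG7, was above Tap2, at 19 ± 1.16.

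Replacement of the standard catalytic subunits was examined as a ratio within each library, which does not depend on the scaling. Psmb5, Psmb6 and Psmb7 themselves were not called, with log2 fold changes of -0.11, -0.07 and -0.09 (edgeR adjusted p = 0.730, 0.811 and 0.831). Counts per kb of Psmb8 over Psmb5 came to 0.497, 0.351, 0.354 and 0.364 across EYFP 1 to 4, against 0.494, 0.618 and 0.620 across ATG7 1 to 3. EYFP 1 was level with ATG7 1, and the other 3 EYFP libraries were close together below both. Psmb9 over Psmb6 came to 0.345, 0.224, 0.235 and 0.261 across EYFP 1 to 4, against 0.369, 0.433 and 0.418 across ATG7 1 to 3, without overlap. Psmb10 over Psmb7 came to 1.02, 0.630, 0.663 and 0.722 across EYFP 1 to 4, against 0.846, 0.977 and 1.00 across ATG7 1 to 3, with EYFP 1 the highest of all 7. The 3 ratios differed by 0.57, 0.63 and 0.34 on the log2 scale. None passed the exact permutation test (two-sided p = 0.0857, 0.0571 and 0.171, and 0.129, 0.129 and 0.171 adjusted over the 3 ratios), whose smallest p is 0.0286. EYFP 1 had the lowest denominators and also the highest numerators of the EYFP libraries in all 3 ratios. Psmb5 was at 50.5 CPM there against 60.0 to 67.1 CPM in EYFP 2 to 4, and Psmb8 at 45.5 CPM against 39.6 to 42.7 CPM.

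**Figure D4:**
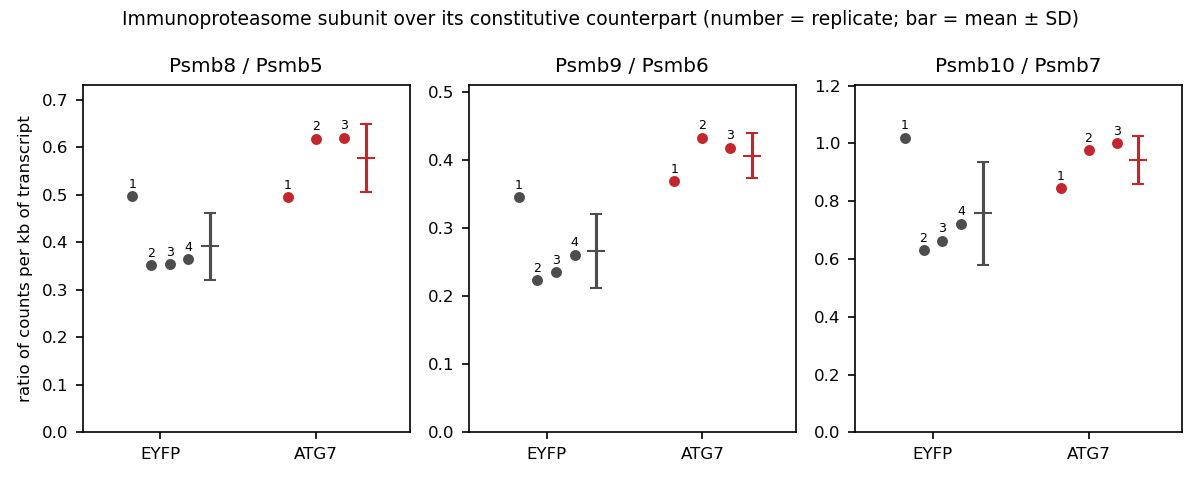
Ratio of counts per kb of transcript for each immunoproteasome subunit over its constitutive counterpart (vertical axes from 0), with numbered libraries and mean ± SD. EYFP 1 sits beside the ATG7 libraries in the first and last panels, at 0.497 and 1.02, and the groups separate for Psmb9 over Psmb6.

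No other proteasome gene of the lists was called. Of 14 constitutive 20S core subunits, 0 were called by edgeR, 0 had an unadjusted p under 0.05, and DESeq2 and limma-voom called 0. Their median log2 fold change was -0.06, from -0.11 to 0.05. The 21 genes of the 19S cap and other regulators gave the same counts, with a median of -0.07, and the smallest p belonged to the ATPase subunit Psmc2 (-0.10, edgeR adjusted p = 0.631). The 5 assembly chaperones, which build the core, also gave 0 calls and 0 genes under an unadjusted p of 0.05, with Psmg4 nearest (0.20, edgeR adjusted p = 0.688). Among 8 other peptidases of the pathway edgeR called 0 and 1 had an unadjusted p under 0.05. That gene was Lap3, a cytosolic leucine aminopeptidase, at 79.2 to 88.1 CPM in EYFP and 101.3 to 111.5 CPM in ATG7 (0.34, edgeR adjusted p = 0.0505). DESeq2 and limma-voom each called 1 of these 8.

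The class I molecules that receive the peptides include genes that rose. Of 9 class I chains 6 were called, all higher, where 0.688% of all genes tested were called as higher. All 9 were higher without overlap, a pattern found for 6.33% of all genes, with a median log2 fold change of 1.02. The 3 not called, H2-Q4 (1.06), H2-Q6 (1.55) and H2-Q7 (1.77), had the largest values of the list. DESeq2 called all 9 and limma-voom 6. B2m, the light chain, was at 1135 to 1588 CPM in EYFP and 2046 to 2414 CPM in ATG7 (0.68, SE 0.128, edgeR adjusted p = 0.0372). The classical heavy chains H2-K1 (1.02, SE 0.157) and H2-D1 (1.05, SE 0.162) each had an edgeR adjusted p of 0.0184. The nonclassical H2-T23 (0.75, edgeR adjusted p = 0.00814) and H2-M3 (0.70, edgeR adjusted p = 0.0143) rose too. Class I heavy chains are close relatives that can share reads, so their single values are uncertain. The difference between these chains and the loading genes was not tested.

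Chaperones of the endoplasmic reticulum that fold class I (Tapbpl, Calr, Canx, Pdia3, Uggt1 and Hspa5) had 1 call of 6, Hspa5, the general chaperone BiP (0.56, SE 0.103, edgeR adjusted p = 0.0320). DESeq2 called 4 of these 6 and limma-voom 2, and 5 had an unadjusted p under 0.05. All 6 were higher without overlap, a pattern found for 6.33% of all genes tested, with a median log2 fold change of 0.29. Of 13 transcription factor genes that act on class I promoters 3 were called, all higher. Among them were Stat2, an interferon signal transducer (0.93, SE 0.131, edgeR adjusted p = 0.0137), and Irf1 (0.53, SE 0.105, edgeR adjusted p = 0.0483), an interferon-induced activator. Rfx5, Rfxap, Rfxank, Nfya, Nfyb and Nfyc, which encode the partners of Nlrc5 on DNA, were not called, with log2 fold changes from -0.13 to 0.23.

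**Figure D5:**
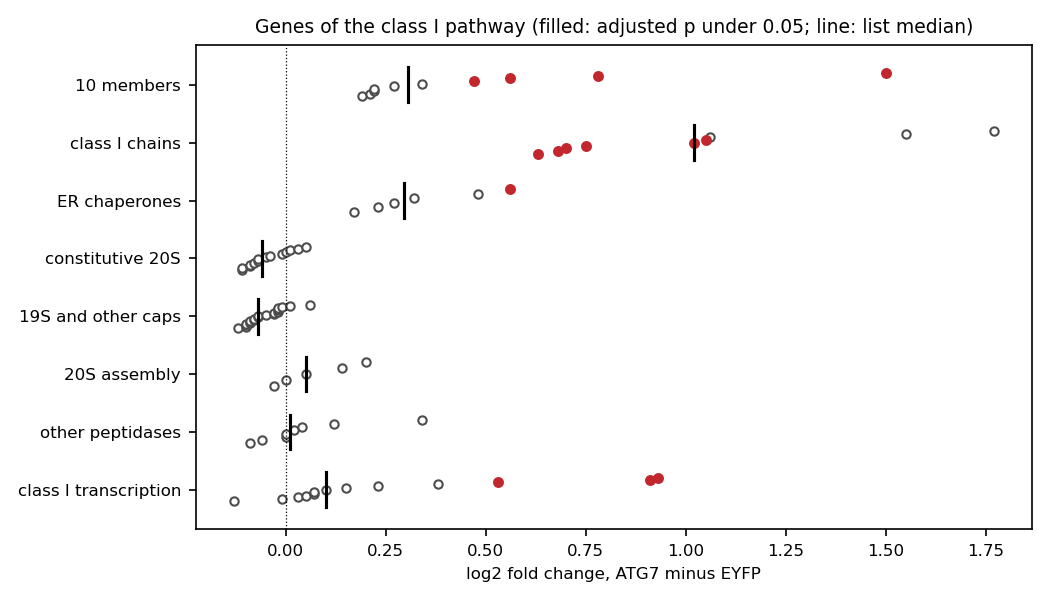
Log2 fold change (ATG7 minus EYFP, horizontal axis) of every gene in the 8 lists of the pathway, filled where the edgeR adjusted p was under 0.05, with a line at each list's median. The 10 loading genes have a median of 0.30 and the class I chains 1.02, while the constitutive 20S genes lie between -0.11 and 0.05.

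The genes most like the set were found by the Pearson correlation over the 7 libraries with the mean of the standardized log2 CPM of its 10 genes. The libraries fall into their groups, so the value includes the difference between them. Highest were Igtp, an interferon-inducible GTPase (r = 0.997), Ly6e, an interferon-induced surface protein (r = 0.994), the cathepsin gene Ctsh (r = 0.994), Cd48 (r = 0.992) and the clock gene Arntl (r = 0.982). Igtp was at 35.8 to 43.0 CPM in EYFP and 51.4 to 68.0 CPM in ATG7 (0.62, edgeR adjusted p = 0.0206). Ly6e (0.54, edgeR adjusted p = 0.0316) and Arntl (1.24, edgeR adjusted p = 0.0122) rose as well, and Ctsh and Cd48 did not pass (edgeR adjusted p = 0.110 and 0.0853).

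Markers of other cells were measured beside these results, since fewer cells of a type and less RNA per cell cannot be told apart in bulk libraries. The summed lymphocyte markers given above did not overlap between the groups. Of the 10 of 12 that could be tested, 8 had a fitted value above 0. The other 2, Klrd1 (-0.20) and Cd79a (-0.01), were below 0. Higher without overlap were 6, a pattern found for 6.33% of all genes tested. These were the T cell genes Cd3e, Cd3d, Cd3g and Cd8a and the cytotoxic genes Nkg7 and Gzmb. They were low, with Cd3d at 0.0443 to 0.319 CPM in EYFP and 0.575 to 1.70 CPM in ATG7. None of the 6 was above 4.82 CPM in any library. EdgeR called 0 of the 10 tested, 6 had an unadjusted p under 0.05, DESeq2 called 4 and limma-voom 0. No lymphocyte marker was at 0 in every library. Lymphocytes carry immunoproteasome, Tap1 and Nlrc5 transcripts at high levels. All 10 choroid plexus markers had a fitted value below 0, with 0 called by edgeR, DESeq2 or limma-voom and 3 under an unadjusted p of 0.05. They summed to 55420 to 73080 CPM in EYFP and 46960 to 61770 CPM in ATG7. Endothelial and mural markers summed to 628.2 to 1021 CPM and 729.8 to 1293 CPM, and the 10 microglial markers to 22590 to 27640 CPM and 22340 to 27510 CPM, with 0 called in either list by edgeR, DESeq2 or limma-voom and 1 and 0 under an unadjusted p of 0.05. EdgeR and limma-voom called 0 of the neuron, astrocyte, oligodendrocyte, border macrophage and blood myeloid markers, of which 0, 1, 0, 1 and 2 had an unadjusted p under 0.05, and DESeq2 called 1 astrocyte and 1 blood myeloid marker.

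With the mean log2 CPM of the choroid plexus markers as a covariate, 0 of the 10 genes were called. Over the whole table that fit called 5 of 19199 genes, against 145 without the covariate. The values were then 0.67 for Tap1 (edgeR adjusted p = 0.0856), 0.46 for Psmb9 (0.173), 0.41 for Psmb8 (0.208) and 1.42 for Nlrc5 (0.352). Of the 7 fits that leave out a single library, Tap1 passed in 7 (edgeR adjusted p from 0.00195 to 0.0450). Psmb9 passed in 4 (0.00712 to 0.131) and was lost without EYFP 4, ATG7 2 or ATG7 3. Psmb8 passed in 2 (0.0176 to 0.177), without EYFP 1 or ATG7 1. Nlrc5 passed in 2 (0.00266 to 0.151), without EYFP 1 or EYFP 3.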

How the data were processed

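The authors deposited 1 table of raw counts per gene, whole numbers for 55401 Ensembl identifiers in 7 columns, each matched to a library by its label (0 columns unmatched). The submitters' processing notes name fastp 0.20.1, HISAT2 2.0.5 and featureCounts, and the builds mm10 and GRCm38. The strand setting, the treatment of shared reads and the annotation are not given in the sources used here. Symbols and positions came from GENCODE M21 (GRCm38), which named 55141 identifiers, and promoter sequences from RefSeq (GRCm38.p6), which held 8 of the 10 genes.

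Counts were fitted over all genes with edgeR 4.0.16 (glmQLFit, robust, TMM factors, filterByExpr, no covariate) in R 4.3.3. The same code was also run on simulated counts, with an outcome not reported here. SE is the absolute log2 fold change over the square root of F. A count of 3 corresponded to 0.0546 to 0.0820 CPM, covering counting error only. Library pairs of a group differed by 20.4 to 44.5 chi-square units per degree of freedom, which is beyond counting error. Each was treated as a replicate, although that spread may be technical. Log2 CPM for the correlation and the covariate used a prior count of 2. Length per gene was that of the principal APPRIS transcript. Near copies were sought with blastn 2.17.0 (at least 90% identity over 300 bases). Exact tests ran over the 35 ways to divide 7 libraries into 4 and 3. Alternatives were DESeq2 1.42.0, limma-voom (limma 3.58.1), other scalings, no filter, a replicate block, a choroid plexus covariate, and leaving out each library.

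The 10 genes and the lists were chosen with earlier results of these data known. Named were the 10 genes, Psmb5, Psmb6, Psmb7, B2m, H2-K1, H2-D1, from each other list the called genes ranked first by p, at most 3, or the top-ranked gene where none was called, overlapping or near-copy genes, and the 5 genes most correlated with the set. Other genes were named after their values were seen. Values of some genes of the lists are not reported here.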

Additional observations from a re-analysis of the deposited data

Results flagged for a closer look

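The ratio of Psmb8 to Psmb5 in EYFP 1, at 0.497, was set apart from the other 3 EYFP libraries, which lay between 0.351 and 0.364. The gap to the nearest library was 0.909 of the range of the group, above Dixon's 95% critical value for 4 samples. It was the single value so marked among the 16 groups of 4 examined, where chance gives about 1 in 20, or 0.8.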

How the results depend on the processing

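All fitted log2 fold changes of the 10 genes stayed above 0 in the 14 alternative fits. The 4 called genes gave 56 such values, of which 34 passed and 22 did not. The 6 genes not called gave 84, of which 82 did not pass and 2, both for Tap2, did. The number of genes called over the whole table was 145, and it was 297 with no filter, 572 with DESeq2, 5 with the choroid plexus covariate and 28 to 277 when 1 library was left out. Of the 10 genes 4 were called, against 0 with the choroid plexus covariate and 1 to 4 when 1 library was left out. Only Tap1 was called without ATG7 2, without ATG7 3 and without EYFP 4. With no filter Nlrc5 was not called (edgeR adjusted p = 0.130) and Tap2 was. Leaving out 1 library moved the log2 ratios to between 0.51 and 0.69 (Psmb8 to Psmb5), 0.55 and 0.76 (Psmb9 to Psmb6) and 0.26 and 0.49 (Psmb10 to Psmb7). None could pass, since the smallest exact p is 0.1 without an EYFP library and 0.0667 without an ATG7 library.

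Same-numbered libraries did not deviate together (correlations of -0.0609, -0.182 and 0.0664 for numbers 1 to 3). This gives no sign that the numbers pair them, but so few correlations cannot exclude it. With the replicate number as a block, 0 genes and 0 of the 10 were called, and the 3 log2 ratios, in the order above, were 0.54, 0.63 and 0.32, in a test whose smallest p is 0.25. Not every library correlated best with its own number. Total depth limits no gene of the set, whose lowest count was 674.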
